A study of Mus musculus with 6 samples.

Results

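The 10 genes of the D-type cyclins and the inhibitors of their kinases were examined in mouse liver with and without Nek7 in hepatocytes. They are a family set, named by symbol and chosen with earlier results of these data known, from the 17975 genes listed for the livers: the cyclins Ccnd1, Ccnd2 and Ccnd3, the kinases Cdk4 and Cdk6, the Cip/Kip inhibitors Cdkn1b and Cdkn1c, and the INK4 inhibitors Cdkn2a, Cdkn2b and Cdkn2c. All 10 were listed, and 9 had enough reads to be tested. In livers of the knock-out mice, Ccnd1, Ccnd2, Cdkn2c and Cdk6 were higher than in wild-type livers, by 3.22-, 2.73-, 2.59- and 1.34-fold, and none of the others passed the test in either direction. Ccnd3, the most abundant D-type cyclin transcript of the wild-type livers, did not rise with the other two.

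D-type cyclins couple growth factor signals to the cell cycle. Each of them binds Cdk4 or Cdk6, and the pair phosphorylates the retinoblastoma protein and its relatives, which frees E2F transcription factors and lets a cell pass from G1 into S phase. INK4 proteins bind Cdk4 and Cdk6 alone and keep cyclins away, whereas Cip/Kip proteins bind whole cyclin-kinase pairs, mainly to block the Cdk2 complexes that act later. In the adult liver most hepatocytes rest outside the cycle, and cyclin D1 is the member classically induced when they re-enter it after loss of liver mass.

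Liver RNA of 3 WT mice and of 3 mice with both Nek7 alleles deleted in hepatocytes (Hom) was sequenced, to ask what the loss of this mitotic kinase does to liver gene expression. Hom mice are NEK7 fl/fl-Alb-Cre+, with Cre under the albumin promoter, on a C57BL/6 background. The samples of the WT mice are titled Ctrl and those of the Hom mice Homo, and no treatment is named. The study gives an age range for its mice as a whole and ages for some groups, among them the Hom mice examined for liver fibrosis. It used both sexes in its knock-out experiments. The age and sex of each sequenced mouse are not given in the sources used here, nor whether the WT mice carried floxed alleles or Cre. RNA came from whole liver, 1 liver per mouse, so that hepatocytes, bile duct cells, stellate cells, endothelial cells and immune cells are mixed. Fewer cells of a type and less RNA per cell cannot be told apart in such samples.

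The estimated counts summed to 19349418 to 19730236 per liver. Counts of Nek7 were 1127, 1077 and 1036 in the WT livers against 310, 439 and 387 in the Hom livers, a log2 fold change of −1.99. Each hepatocyte marker on a list of 12 (Alb, Ttr and others) was detected, and their summed level was 111028 to 155611 TPM in WT and 82298.9 to 92340.2 TPM in Hom livers (TPM as deposited, not corrected for library composition). Hom replicate 1 stood apart in its Y-linked genes, with 0 counts of Ddx3y and Kdm5d, 4 of Eif2s3y and 149 of Uty, where each of the other 5 livers had at least 630, 243, 582 and 464. The fits, the shares among the 10 genes and the ratios below were therefore also computed without it. The order of levels, the shares with Cdkn1a and the nearest profiles were not. The 4 genes called higher were the same 4 without this liver, with log2 fold changes of 1.50 for Ccnd1, 1.52 for Ccnd2, 1.42 for Cdkn2c and 0.50 for Cdk6 (adjusted p of 0.0166, 0.00154, 0.00724 and 0.0142, edgeR).

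Promoter windows from RefSeq (GRCm38.p6, 250 bases before and 50 after an annotated start) were matched by symbol for 7 of the 10 genes, 10 windows in all. Ccnd1, Ccnd2 and Cdkn1c had no window, so their promoters were not searched. The windows of Cdk4, Cdk6 and Cdkn2c are shown because these 3 genes carry the E-box CACGTG, the letters that MYC and related factors are known to bind. Another reason is that Cdk6 and Cdkn2c were higher in Hom livers, while Cdk4, the other D-type cyclin kinase, did not pass the test. Capitals mark the E-box, which reads the same on both strands. The Cdk4 window is at chr10:127063285-127063584 on the plus strand and the Cdk6 window at chr5:3343643-3343942 on the plus strand. Cdkn2c has 2 windows on the minus strand, at chr4:109666707-109667006 and chr4:109665323-109665622.
Cdk4: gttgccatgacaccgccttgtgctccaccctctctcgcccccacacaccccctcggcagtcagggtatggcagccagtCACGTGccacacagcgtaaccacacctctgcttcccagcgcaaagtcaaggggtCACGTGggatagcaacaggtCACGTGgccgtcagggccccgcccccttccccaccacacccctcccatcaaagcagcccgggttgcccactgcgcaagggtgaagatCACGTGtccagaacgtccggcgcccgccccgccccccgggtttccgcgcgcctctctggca
Cdk6: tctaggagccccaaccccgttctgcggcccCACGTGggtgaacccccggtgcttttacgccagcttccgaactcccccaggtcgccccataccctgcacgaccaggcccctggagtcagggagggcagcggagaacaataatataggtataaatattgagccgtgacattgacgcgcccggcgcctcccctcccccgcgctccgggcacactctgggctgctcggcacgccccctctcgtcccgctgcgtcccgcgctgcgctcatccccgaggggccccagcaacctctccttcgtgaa
Cdkn2c, first window: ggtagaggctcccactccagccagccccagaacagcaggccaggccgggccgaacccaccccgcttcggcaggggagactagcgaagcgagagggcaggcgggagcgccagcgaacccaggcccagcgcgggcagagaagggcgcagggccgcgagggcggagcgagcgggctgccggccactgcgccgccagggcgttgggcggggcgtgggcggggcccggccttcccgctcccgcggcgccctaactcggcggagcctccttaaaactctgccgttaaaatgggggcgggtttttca
Cdkn2c, second window: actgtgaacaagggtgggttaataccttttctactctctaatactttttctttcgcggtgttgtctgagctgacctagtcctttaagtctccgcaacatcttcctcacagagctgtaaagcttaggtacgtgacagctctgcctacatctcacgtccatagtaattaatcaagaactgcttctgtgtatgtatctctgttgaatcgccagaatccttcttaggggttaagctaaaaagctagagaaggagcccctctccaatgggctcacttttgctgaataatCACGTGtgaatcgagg

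The Cdk4 window held 4 E-boxes, starting 172, 118, 98 and 11 bases before the start site. One E-box stood 220 bases before the start of Cdk6, and 1 stood 35 bases after the start in the second window of Cdkn2c, while the first window of Cdkn2c held none. All motifs were searched on both strands. Over all 32851 promoter windows of the same length, 7.15% held this motif. An E2F motif (TTTCCCGC, TTTGGCGC or TTTCGCGC) was found in 1 window of the 7 genes, that of Cdkn2a, against 1.84% of all windows. The cyclic AMP response element TGACGTCA was found in that of Cdkn2b alone, 46 bases before its start, against 1.79% of all windows. The AP-1 motif TGANTCA was found in no window of the 7 genes, against 7.81% of all windows. The GC box GGGCGG stood in 8 of the 10 windows and in 6 of the 7 genes, Cdk6 being the exception, against 35.7% of all windows. The content of G and C was 57.7% to 77% in these windows except the second of Cdkn2c (44%). Its median over all windows was 52.7%. These matches say only which letters are present.

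Among the cyclins, Ccnd1 showed the largest difference of the 10 genes. Ccnd1 (cyclin D1, NCBI Gene 12443) had 858, 315 and 646 counts in WT replicates 1, 2 and 3, against 3097, 2569 and 2259 counts in the Hom livers in the same order. As CPM (read counts scaled to a common library size and by the TMM factors, which correct for library composition), its level was 47.9, 20.2 and 39.7 in the WT livers and 145, 106 and 97.4 in the Hom livers. WT replicate 2 was the lowest liver, and the lowest Hom liver lay well above the highest WT liver. Mean levels were 35.9 ± 14.2 CPM in WT and 116 ± 25.1 CPM in Hom livers (SD, n = 3 mice each). Ccnd1 thus rose by 1.69 on the log2 scale (standard error 0.31), with an adjusted p of 0.00630 from the quasi-likelihood test of edgeR, adjusted by Benjamini-Hochberg over 13805 genes. Without WT replicate 2 it was 1.40 (adjusted p = 0.00882), and over all 6 fits that each left out 1 liver it lay between 1.40 and 1.95.

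Ccnd2 (cyclin D2, NCBI Gene 12444) followed the same direction from a lower level and with less spread. Its counts were 223, 152 and 175 in WT replicates 1 to 3 and 575, 708 and 790 in Hom replicates 1 to 3, or 12.5, 9.75 and 10.8 CPM against 26.8, 29.2 and 34.1 CPM. The lowest Hom liver was at more than 2 times the highest WT liver. It rose by 1.45 on the log2 scale (standard error 0.13), and the adjusted p of 6.03e-04 was the smallest of the 10 genes. The order of the Hom livers differed between the 2 genes: Hom replicate 1 was the highest for Ccnd1 and the lowest for Ccnd2.

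Ccnd3 (cyclin D3, NCBI Gene 12445), known above all from its part in lymphocyte development, did not pass the test. It had 947, 600 and 737 counts in WT and 807, 816 and 839 counts in Hom replicates 1, 2 and 3. After TMM scaling these were 52.9, 38.5 and 45.3 CPM in WT and 37.7, 33.6 and 36.2 CPM in Hom livers, so that the 3 Hom livers lay just under the 3 WT livers. Its log2 fold change was −0.35 (standard error 0.12, adjusted p = 0.0587). Without WT replicate 2, the lowest WT liver, it was −0.46 and passed the test (adjusted p = 0.0281), while scaling by library size alone gave 0.095 (adjusted p = 0.636), a change of sign. That scaling also moved the median over all genes tested, from −0.0018 to 0.45 on the log2 scale, and relative to this median Ccnd3 stood at −0.36.

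**Figure D1:**
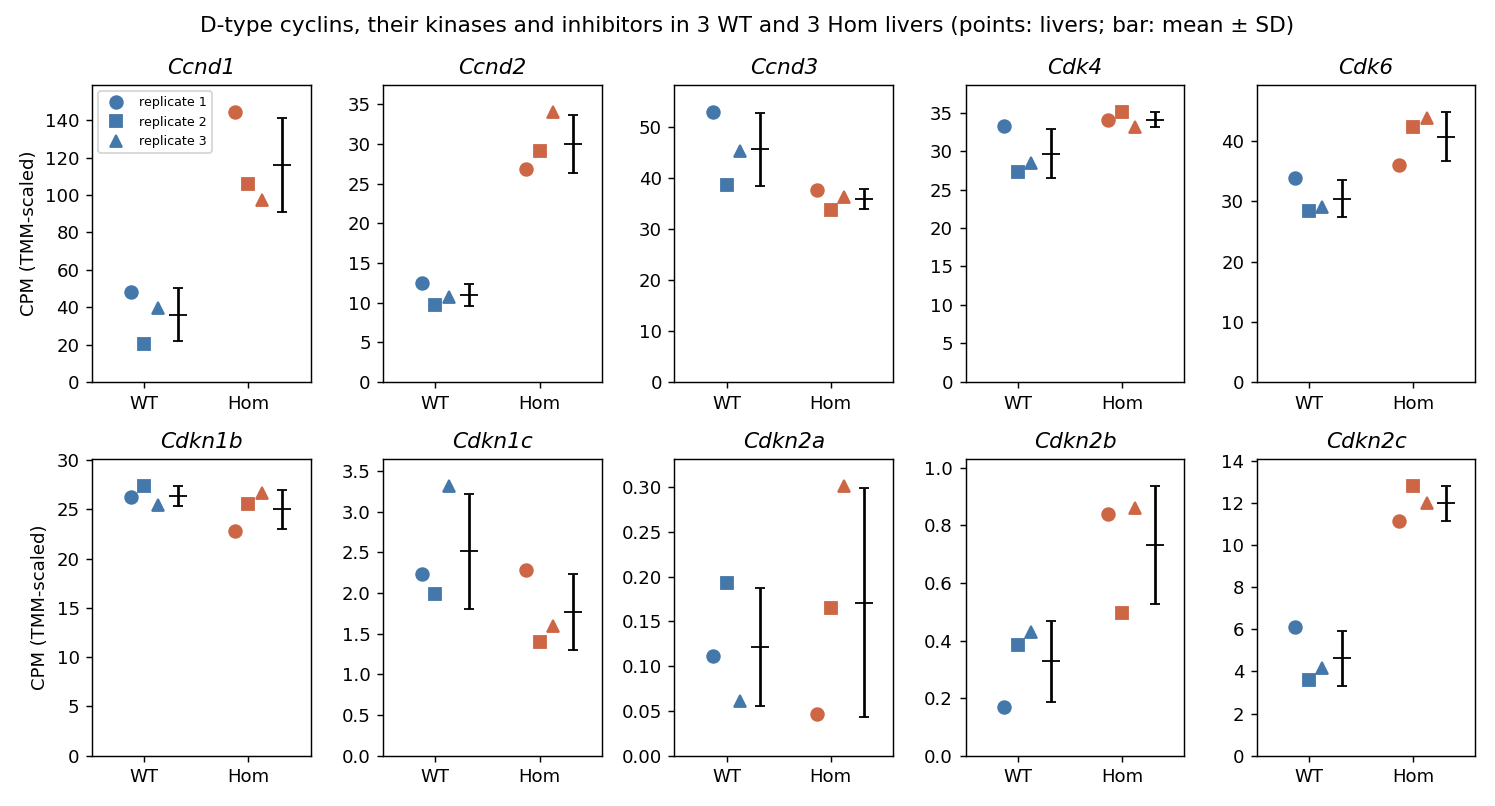
Level of each of the 10 genes in CPM after TMM scaling (vertical axes from 0) in 3 WT and 3 Hom livers, with 1 point per liver, the marker shape giving the replicate number, and the mean ± SD at the right of each group. Ccnd1, Ccnd2, Cdk6, Cdkn2b and Cdkn2c have all Hom livers above all WT livers, Ccnd3 has all of them below, and the groups overlap for the other 4 genes.

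The kinases that the D-type cyclins activate differed less. Cdk6 (NCBI Gene 12571) had 608, 443 and 473 counts in WT and 774, 1026 and 1018 counts in Hom replicates 1, 2 and 3, or 34.0, 28.4 and 29.1 CPM against 36.1, 42.3 and 43.9 CPM. The groups did not overlap, but WT replicate 1 and Hom replicate 1 were close to each other. Cdk6 rose by 0.42 on the log2 scale (standard error 0.11, adjusted p = 0.0218). This call was lost without Hom replicate 2 (0.39, adjusted p = 0.0747), Hom replicate 3 (0.36, 0.0801), WT replicate 2 (0.37, 0.0800) or WT replicate 3 (0.38, 0.0671). Cdk4 (NCBI Gene 12567) had 595, 426 and 463 counts in WT and 730, 851 and 767 counts in Hom livers, which were 33.2, 27.3 and 28.4 CPM and 34.1, 35.1 and 33.1 CPM. WT replicate 1 lay inside the Hom range. The log2 fold change of Cdk4 was 0.20 (standard error 0.094, adjusted p = 0.129), and it passed the test without WT replicate 1 (0.28, adjusted p = 0.0327), 1 of 4 alternatives of 13 in which it did.

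Of the Cip/Kip inhibitors, neither Cdkn1b nor Cdkn1c passed the test. Cdkn1b (p27, which holds resting cells out of the cycle, NCBI Gene 12576) had 469, 427 and 414 counts in WT and 488, 619 and 618 counts in Hom replicates 1, 2 and 3. Its levels of 26.2, 27.4 and 25.4 CPM and 22.8, 25.5 and 26.6 CPM overlapped. The log2 fold change was −0.076 (standard error 0.088, adjusted p = 0.516), and its sign depended on the scaling: it was 0.015 with upper-quartile factors and 0.38 (adjusted p = 0.0377) with library size alone. Relative to the median of all genes tested, Cdkn1b stood at −0.074 and −0.069 under these scalings, and at −0.074 with TMM. Cdkn1c (p57, an imprinted growth inhibitor, NCBI Gene 12577) was low in every liver, with 40, 31 and 54 counts in WT and 49, 34 and 37 in Hom livers. Its levels of 2.23, 1.99 and 3.32 CPM against 2.29, 1.40 and 1.59 CPM overlapped as well. The log2 fold change was −0.51, with a standard error of 0.31 and an adjusted p of 0.217.

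The third gene of the Cip/Kip family, Cdkn1a (p21, a target of p53 that is not one of the 10 genes), fell. It had 1728, 1493 and 1435 counts in WT and 537, 510 and 616 counts in Hom replicates 1, 2 and 3. The levels were 96.5, 95.8 and 88.2 CPM in WT and 25.1, 21.0 and 26.6 CPM in Hom livers, with no overlap. Its log2 fold change was −1.95 (standard error 0.11, adjusted p = 1.59e-04), and it passed the test in all 13 alternatives tried.

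Of the INK4 genes, Cdkn2c alone passed the test, and it rose. Cdkn2c (p18, NCBI Gene 12580) was the most abundant of the 3, with 109, 56 and 68 counts in WT and 239, 311 and 278 counts in Hom replicates 1, 2 and 3. Its level was 6.09, 3.59 and 4.18 CPM in WT and 11.2, 12.8 and 11.98 CPM in Hom livers, with no overlap. The log2 fold change of Cdkn2c was 1.37 (standard error 0.21, adjusted p = 0.00299) and lay between 1.22 and 1.62 with each liver left out. Cdkn2b (p15, which cells induce in response to TGF-beta, NCBI Gene 12579) had only 3, 6 and 7 counts in WT and 18, 12 and 20 counts in Hom livers. All Hom livers lay above all WT livers, at 0.840, 0.495 and 0.862 CPM against 0.168, 0.385 and 0.430 CPM, but the log2 fold change of 1.16 (standard error 0.46) did not pass the test (adjusted p = 0.0844).

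Cdkn2a (NCBI Gene 12578), whose locus adjoins Cdkn2b and encodes both p16 and the p53 activator ARF, was barely detected. It had 2, 3 and 1 counts in WT and 1, 4 and 7 counts in Hom livers, too few to pass the filter, and a difference was not detectable at this depth. With no filter its log2 fold change was 0.49 (standard error 0.85, adjusted p = 0.694), and DESeq2 gave 0.50 (adjusted p = 0.807). A count per gene does not separate the 2 products. Cdkn2d (p19), the remaining INK4 gene and not one of the 10, did not pass the test (log2 fold change 0.44, standard error 0.33, adjusted p = 0.321).

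In all, 4 of the 9 genes tested were called higher and 0 lower, where 21.5% of the 13805 genes tested were called higher and 20.1% lower. At an unadjusted p under 0.05 there were 5 higher and 1 lower, and DESeq2 called 4 higher and 0 lower, the same 4 genes. All Hom livers lay above all WT livers for 5 of the 9, against 28.7% of all genes tested, and below them for 1, against 27.0%. The median log2 fold change of the 9 was 0.42, beside −0.0018 for all genes tested. Ccnd1, Ccnd2 and Cdkn2c passed the test in each of 13 alternatives of scaling, filter, tool and left-out liver, and Cdk6 in 8 of 13.

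**Figure D2:**
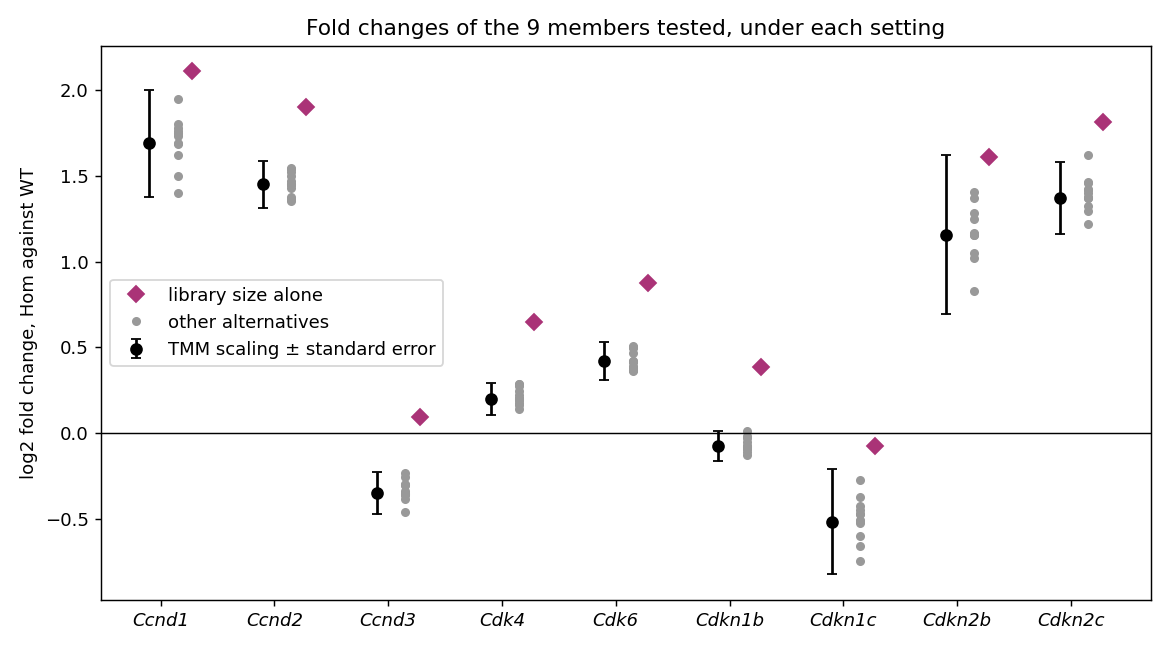
Log2 fold change of Hom against WT livers (vertical axis) for the 9 genes tested, as estimated with TMM scaling (black, bar: standard error), with library size alone (diamonds) and with the other alternatives (grey points). Library size alone lifts every gene, by the 0.45 that it lifts the median of all genes or close to it, and moves Ccnd3 and Cdkn1b from below to above 0.

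Levels of different genes were compared per length, as TPM, the transcript share of a library after division by gene length, which is not corrected for library composition. TPM was therefore used for the order and shares of genes inside a liver, and no test of a gene's level between the groups rests on it. For example, mean Ccnd3 was 37.1 TPM in WT and 43.3 TPM in Hom livers, although its CPM after TMM scaling was lower in Hom. In WT livers the order of mean levels was Ccnd3 (37.1 TPM), Cdk4 (31.7), Cdkn1b (16.1), Ccnd1 (14.1), Cdkn2c (4.94), Cdk6 (3.84), Ccnd2 (2.68), Cdkn1c (1.91), Cdkn2b (0.337) and Cdkn2a (0.213). Neighbours overlapped between livers except Cdk4 and Cdkn1b, Ccnd1 and Cdkn2c, and Cdkn1c and Cdkn2b. In Hom livers Ccnd1 came first (67.9 TPM), ahead of Cdk4 (55.3), with which it overlapped, and Ccnd3 (43.3), with which it did not. Cdkn1b (23.6 TPM) and Cdkn2c (19.8) followed and overlapped. Below them stood Ccnd2 (11.2 TPM), Cdk6 (7.89), Cdkn1c (2.05), Cdkn2b (1.197) and Cdkn2a (0.463), none overlapping its neighbour above.

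The make-up of the cyclin pool differed between the groups. Ccnd1 made up 28.7%, 19.1% and 28.0% of the D-type cyclin TPM in the WT livers and 60.7%, 54.5% and 50.7% in the Hom livers. Ccnd3 went from 69.6% ± 4.72 to 35.5% ± 2.96 of the pool and Ccnd2 from 5.08% ± 0.64 to 9.22% ± 2.08 (SD, n = 3). Each of the 3 shares had no overlap between the groups and an exact two-sided permutation p of 0.1, which is the smallest that 3 livers against 3 allow, so no share could pass 0.05. A share inside 1 liver does not depend on the scaling between libraries. Ccnd1 differed by 30.0 percentage points, or by 27.3 without Hom replicate 1 and 26.9 without WT replicate 2.

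The kinase pool shifted little: Cdk6 made up 10.8% ± 0.19 of Cdk4 and Cdk6 TPM in WT and 12.4% ± 1.29 in Hom livers (exact permutation p = 0.1). This difference of 1.61 percentage points was 0.989 without Hom replicate 3. Among Cdkn1b and Cdkn1c, Cdkn1b took 89.4% ± 2.80 in WT and 91.8% ± 2.51 in Hom livers (exact permutation p = 0.3), and Cdkn2c took 89.0% ± 5.01 and 92.2% ± 2.23 of the 3 INK4 genes (exact permutation p = 0.4). The Cdkn1b difference of 2.43 percentage points was 0.854 without WT replicate 3 and 3.87 without Hom replicate 1. That of Cdkn2c, 3.22 points, was 5.83 without WT replicate 1 and 0.839 without WT replicate 2. With Cdkn1a counted in, the Cip/Kip pool differed: Cdkn1a fell from 80.0% ± 0.88 to 52.8% ± 3.14 of it and Cdkn1b took 17.8% ± 0.44 and 43.3% ± 3.84, without overlap (exact permutation p = 0.1 for both).

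**Figure D3:**
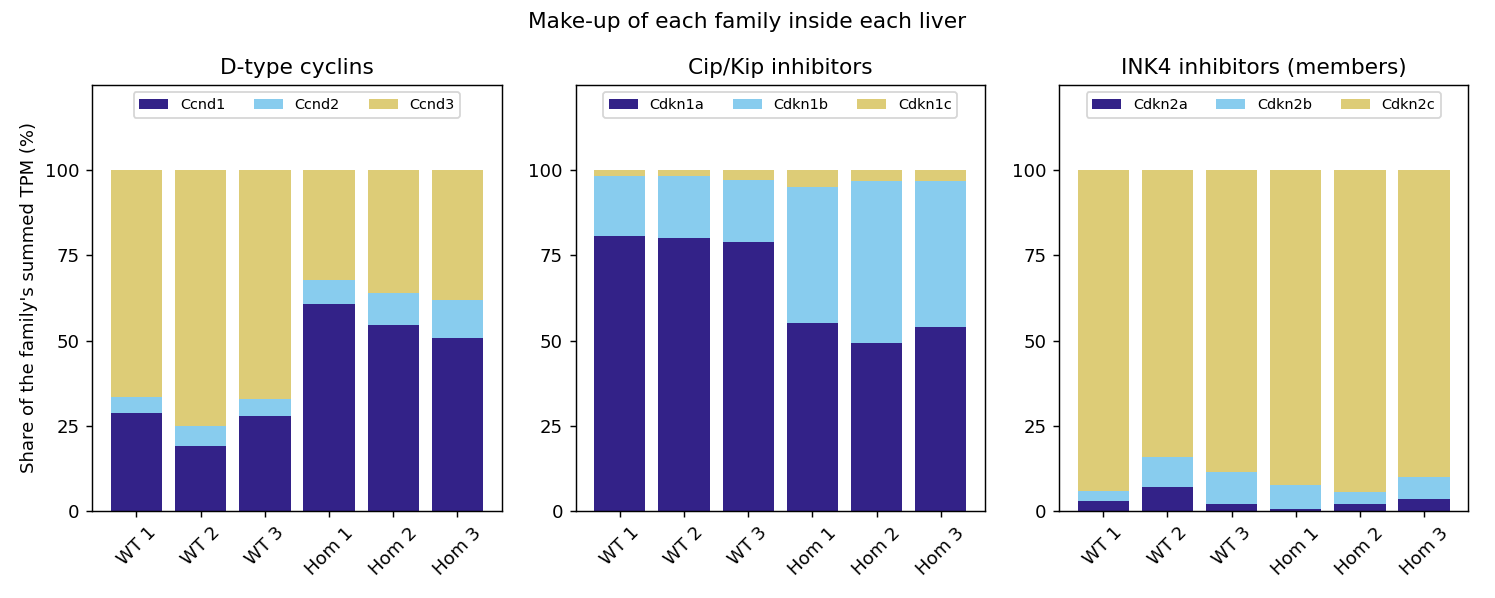
Share of each family's summed TPM (vertical axis, percent) held by each gene in every liver, for the D-type cyclins, the Cip/Kip genes with Cdkn1a, and the 3 INK4 genes. Ccnd1 holds 19.1% to 28.7% of the cyclin pool in WT and 50.7% to 60.7% in Hom livers, and Cdkn1a holds 79.1% to 80.8% of the Cip/Kip pool in WT and 49.3% to 55.3% in Hom livers.

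Ratios between the groups of genes, which were chosen after the values had been seen, put cyclins and inhibitors side by side. The summed INK4 level was 0.372, 0.257 and 0.273 times the summed level of Cdkn1b and Cdkn1c in the WT livers, and 0.821, 0.870 and 0.818 times in the Hom livers. These ratios did not overlap (exact permutation p = 0.1), and the difference of 0.536 between the group means was 0.306 from estimated counts. The 3 cyclins together stood at 2.26 ± 0.45 times the 5 inhibitors in WT and at 2.64 ± 0.49 times in Hom livers, which overlapped (exact permutation p = 0.5). This difference of 0.380 was 0.0951 without Hom replicate 1 and 0.135 without WT replicate 2, and 1.90 (exact permutation p = 0.1) from estimated counts, which are not divided by gene length. With Cdkn1a and Cdkn2d counted among the inhibitors, the ratio was 0.543 ± 0.116 in WT and 1.54 ± 0.246 in Hom livers, without overlap (exact permutation p = 0.1). Set against their kinases, the cyclins were at 1.50 ± 0.21 and 1.95 ± 0.26 times Cdk4 and Cdk6, also without overlap (exact permutation p = 0.1), but without Hom replicate 1 or WT replicate 2 the p was 0.2.

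Other genes of the same step were read from lists. Of 14 further cyclins, kinases and inhibitors of G1, 4 were higher and 2 lower (median log2 fold change 0.21), counts near the 21.5% higher and 20.1% lower of all genes tested. Those higher were Cdkn3, a phosphatase that acts on Cdk2 (2.58), Ccna2, the cyclin of S phase (1.96), Ccne1, the partner of Cdk2 at the G1 to S transition (1.59), and Cdc25a, the phosphatase that activates Cdk2 (1.54). The lower genes were Cdkn1a, given above, and Cks1b, a cofactor in the degradation of p27 (−0.98, adjusted p = 0.0122). A floor of 10 counts in each liver left 1 of the 4 higher calls, since low genes such as Cdkn3 and Ccne1 were then not tested.

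Of 13 pocket protein and E2F genes, 4 were higher and 0 lower (median 0.23, and 4 and 0 at an unadjusted p under 0.05), where 21.5% of all genes tested were higher and 20.1% lower. Rbl1 (p107) had a log2 fold change of 1.23 (adjusted p = 0.00985), E2f2 of 1.43 (0.0492), E2f3 of 0.54 (0.0443) and Rb1 of 0.37 (0.0339). DESeq2 called 3 higher and 0 lower. The calls on this list were not stable: each liver left out in turn gave 1 or 2 higher, and Rb1, the target of the cyclin D kinases, passed in 5 of 13 alternatives. Of 4 genes for cyclin D turnover, Fbxo31, which targets cyclin D1 for degradation, was lower (−1.002, adjusted p = 0.00896), and Fbxo4, another such F-box gene, was higher (0.41, adjusted p = 0.0227). The Fbxo4 call was lost without Hom replicate 1, Hom replicate 3, WT replicate 2 or WT replicate 3, which left 0 higher on this list.

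Because Cdkn1c is imprinted, a list of 12 other imprinted genes was read beside it, of which 9 were tested. H19 and Meg3 were not among the genes listed for the livers, and Dlk1 had too few reads. Of the 9 tested, 5 were higher and 0 lower (0 lower by DESeq2, and 1 at an unadjusted p under 0.05), with a median of 1.12 on the log2 scale, where 21.5% of all genes tested were higher and 20.1% lower. They were Phlda2 (2.94) and Kcnq1 (2.03), which share the imprinted domain of Cdkn1c, Grb10, an adaptor that restrains insulin signalling (1.26), the growth factor gene Igf2 (1.14), and the zinc finger gene Plagl1 (1.12). Slc22a18, of the same domain, did not pass the test (−0.12, adjusted p = 0.291), nor did Cdkn1c itself, with a log2 fold change of −0.51.

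Marker lists of several liver cell types were read in the same way, against the 21.5% higher and 20.1% lower of all genes tested. Their sums in TPM are not corrected for library composition, and the calls are from edgeR. All 10 genes of dividing cells (Ccnb1, Cdk1, Aurkb and others) rose (median 2.02 on the log2 scale), and their summed level was 2.37 to 7.97 TPM in WT and 19.9 to 49.4 TPM in Hom livers. Hom replicate 1, the liver with the highest Ccnd1, was the lowest Hom liver for this sum. That count was 3 with a floor of 10 counts in each liver, 3 without Hom replicate 2 and 5 without Hom replicate 3. Of 10 cholangiocyte markers, 9 were higher and 0 lower (median 3.02), the smallest adjusted p being those of Krt7, Spp1 and Epcam, and their sum was 53.2 to 99.9 TPM in WT and 882 to 1382 TPM in Hom livers. Of 10 stellate cell and fibroblast markers, 6 were higher and 1 lower (median 1.41), with sums of 41.0 to 51.3 and 204 to 255 TPM.

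Macrophage markers were called at shares near those of all genes tested, with 3 of 10 higher and 2 lower (median 0.44, sums of 152 to 424 and 441 to 636 TPM), and 6 were higher without WT replicate 1 but 1 without Hom replicate 2, Hom replicate 3, WT replicate 2 or WT replicate 3. Of 6 lymphocyte markers tested, 2 were higher (median 1.12, sums of 5.24 to 15.5 and 18.2 to 37.9 TPM), but 0 were so without Hom replicate 2, Hom replicate 3, WT replicate 2 or WT replicate 3. Endothelial markers were mostly lower, with 6 of 10 lower and 1 higher (median −0.58, sums of 114 to 194 and 100.1 to 123 TPM). Hepatocyte markers were lower in 9 of 12 (median −0.69), in 11 by DESeq2 and in 10 at an unadjusted p under 0.05. By each of these, 0 were higher. Without Hom replicate 3 and without WT replicate 2 there were 4 and 5 lower. No defining marker was at 0 in all livers. The part of these shifts in the differences of Ccnd1, Ccnd2, Cdk6, Cdkn2c and Cdkn1a was not tested.

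**Figure D4:**
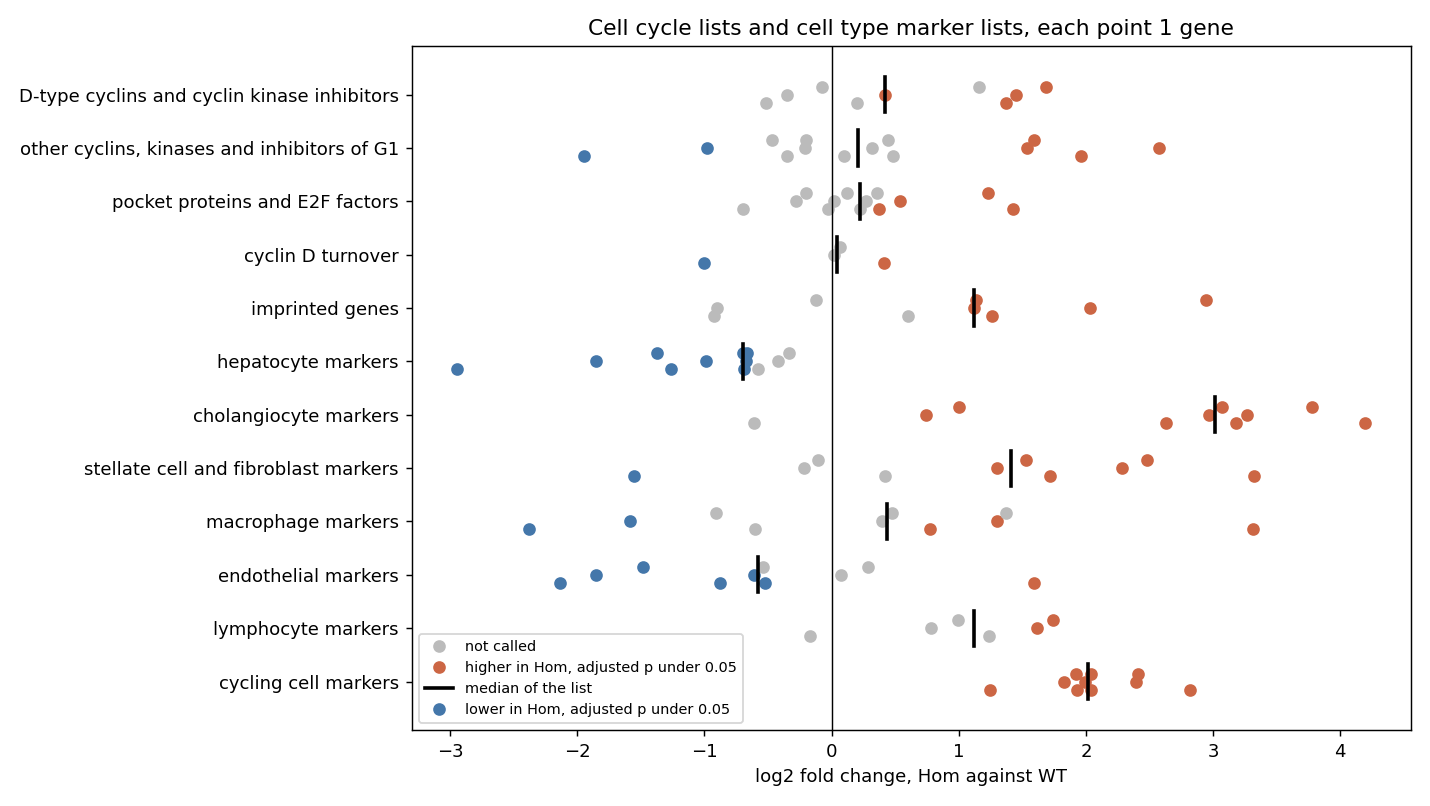
Log2 fold change of Hom against WT livers (horizontal axis) for each tested gene of the cyclin D genes, the pathway lists and the cell type marker lists (rows), coloured by call, with the median of each list as a black bar. The cyclin D genes have a median of 0.42, the cycling cell markers of 2.02, the cholangiocyte markers of 3.02 and the hepatocyte markers of −0.69.

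The genes whose profile over the 6 livers was most like that of Ccnd1, by the Euclidean distance of centred log2 CPM, were the histone gene H4c12 (0.296), Evc2, a component of the primary cilium (0.311), and the cation channel gene Trpv4 (0.442). H4c12 had at most 0.653 CPM in any liver, and its log2 fold change was 2.62 against 1.69 for Ccnd1. For Cdk6, the called gene with the smallest fold change, they were the prefoldin subunit gene Vbp1 (0.085), the DNA damage response gene Topbp1 (0.088) and the aminopeptidase gene Rnpep (0.126). These distances are descriptions over 6 livers that share the difference between the groups.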

How the data were processed

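RNA-seq of 3 WT and 3 Hom livers was read from the table the authors deposited. It holds estimated counts (expected counts, from RSEM 1.2.12 per the submitters' processing notes, which also name HISAT2 2.0.4, Bowtie2 2.2.5 and build mm9), and FPKM and TPM values that the authors derived from them by gene length and library size. Strandedness is not given in the sources used here. The authors' mean columns carry crossed group names (107850 of 107850 cells equal the mean of the other group within 0.01) and were not used. Groups were taken from the sample labels, and Nek7 was lower in each Hom liver.

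Counts were rounded and fitted in R 4.3.3 with edgeR 4.0.16 (filterByExpr, 13805 genes kept, TMM factors of 0.81 to 0.92 in WT and 1.09 to 1.23 in Hom livers, quasi-likelihood test, Benjamini-Hochberg adjusted p under 0.05, no minimum fold). The standard error was the absolute log2 fold change over the square root of F. TPM was used for shares, ratios and order, with exact two-sided permutation over livers. The fit was checked on simulated counts. Alternatives were DESeq2 1.42.0, library size or upper-quartile scaling, no filter or a floor of 10 counts in each liver, a correction for gene length (87.8% of tested genes had one), a block for the replicate number, leaving out each liver, and, for shares, FPKM or counts. No 2 libraries of a group were alike enough to be one library (chi-square over its degrees of freedom at least 23.8).

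The 10 genes and all lists were chosen with earlier results of these data known. Genes named beside them were Nek7, Cdkn1a, Cdkn2d and Rb1, called genes of the 4 pathway lists, up to 3 called genes of each marker list, and the 3 genes nearest in profile to Ccnd1 and to the called genes with the largest and the smallest fold change. Counting error limits Cdkn2a, Cdkn2b and Cdkn1c most.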

Additional observations from a re-analysis of the deposited data

How the results depend on the processing

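Over the 9 cyclin D genes tested and 116 comparisons with an alternative, 101 kept direction and side of the threshold, 5 lost the call (all Cdk6), 7 gained one with the same sign and 3 changed sign. Among the sign changes, Cdkn1b with library size alone also gained a call (adjusted p = 0.0377, edgeR). With library size alone, which moved the median of all genes to 0.45 and gave 6574 genes higher and 642 lower (91.1% of calls higher against 51.7%), Ccnd3 had a log2 fold change of 0.095 and Cdkn1b of 0.38, 7 of the 9 genes were higher, 9 pocket protein and E2F genes and 3 turnover genes were higher, and 1 gene of the G1 list was lower. Upper-quartile factors gave 0.015 for Cdkn1b and 62.8% of calls higher. With at least 10 counts in every liver, 1 gene of the G1 list was higher. The gene length correction left 1 pocket protein and E2F gene higher and 1 lower. Leaving out each liver gave 3 to 5 of the 9 genes higher and 0 to 1 lower, 1 to 2 pocket protein and E2F genes higher and 0 to 1 lower, 0 to 1 turnover genes higher, and 1986 to 3057 higher and 1767 to 2750 lower of all genes. WT and Hom livers share replicate numbers but are different mice, and same-numbered livers did not deviate together (correlations of −0.11, −0.056 and −0.049). With the replicate block, 3 of the 9 genes were higher (Cdk6 lost, adjusted p = 0.0619) and 1 lower (Ccnd3, −0.34, adjusted p = 0.0494), and 2 pocket protein and E2F genes were higher. From estimated counts in place of TPM, the Cdk6 share differed by 3.70 percentage points. The causes of these shifts were not tested. About 20 counts or fewer per liver (Cdkn2a, Cdkn2b) leave folds uncertain.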
